A study of Mus musculus with 3 samples.

Results

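Primordial germ cells, the precursors of sperm and eggs, are set aside in the mouse from a few cells of the proximal epiblast around the onset of gastrulation. The genes described here are 9 rows of the deposited expression table, *Prdm1*, *Prdm14*, *Dppa3*, *Nanos3*, *Dnd1*, *Kit*, *Ifitm1*, *Ifitm2* and *Ifitm3*, out of 23421 genes in all. They were chosen by symbol, as genes of germ cell precursors and as members of the *Ifitm* family, and all 9 were found. The study asked which gene of the *t* complex on Chr 17 is responsible for the gastrulation failure of *tw18* homozygotes, and its RNA-seq data hold 1 library each of wild-type, *tw18*/+ and *tw18*/*tw18* embryos. By the labels all embryos were of strain 129/SvEv, were collected at embryonic day 6.5 and came from crosses between heterozygotes, while the study speaks of a background that was not inbred for its embryos in general. The *tw18* haplotype carries a large deletion with many genes, among them *Ppp2r1a*, so that heterozygotes lack 1 copy and homozygotes both copies of every gene in it. The labels name the tissue as epiblast, while the study describes the dissected part as the embryo proper, epiblast with the surrounding visceral endoderm, separated from the extra-embryonic part used for genotyping. The sources used here do not say how many embryos went into a library. For its in situ hybridizations at embryonic day 6.5, the study calls the mutant embryos slightly younger. The part of stage in the differences between libraries was not tested.

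In the mouse embryo, BMP4 and BMP8B from the extra-embryonic ectoderm and BMP2 from the visceral endoderm act through SMAD proteins on epiblast cells that have been made competent by WNT3. The cells that respond express the transcriptional repressor gene *Prdm1* (*Blimp1*) and, with it, *Prdm14* and *Tfap2c*, after which they shut off the somatic programme and keep or regain pluripotency genes. *Dppa3* (*Stella*), *Nanos3*, *Dnd1* and *Kit* belong to the later identity, survival and migration of these cells. *Ifitm3* (*Fragilis*) was described as an early mark of the region in which precursors arise. The IFITM proteins are small membrane proteins better known for blocking the entry of viruses, and several of their genes respond to interferon.

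FPKM values count fragments per length of transcript and per size of the library, so each value is a share of its own library, and levels of different genes are compared here on this scale. From the spacing of low values, 1 fragment on a transcript of 1 kb was worth 0.0725 FPKM in wild type, 0.0519 in *tw18*/+ and 0.0522 in *tw18*/*tw18*, so that wild type was the shallowest library. Fragment numbers derived from these steps are approximate, and the 95% intervals built on them (exact Poisson for a level, exact conditional binomial for a log2 ratio) cover counting error only. With 1 library per genotype there is no measure of the spread between embryos, and no difference is given a p-value. *Ppp2r1a* stood at 146 FPKM in wild type, 81.7 in *tw18*/+ and 12.8 in *tw18*/*tw18*, the order of its gene copies. About 347 fragments (11.5 to 14.2 FPKM) of this deleted gene were thus listed in the homozygous library, and what they came from was not tested. The 10 epiblast markers listed, led by *Dnmt3b* and *Pou5f1*, added up to 1822, 1931 and 917 FPKM in these libraries, and the 13 visceral endoderm markers, led by *Apoa1*, to 948, 947 and 1310. The 14 markers of decidua and uterine stroma, maternal tissues, were detected in every library and summed to 1866, 350 and 1139.

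**Figure D1:**
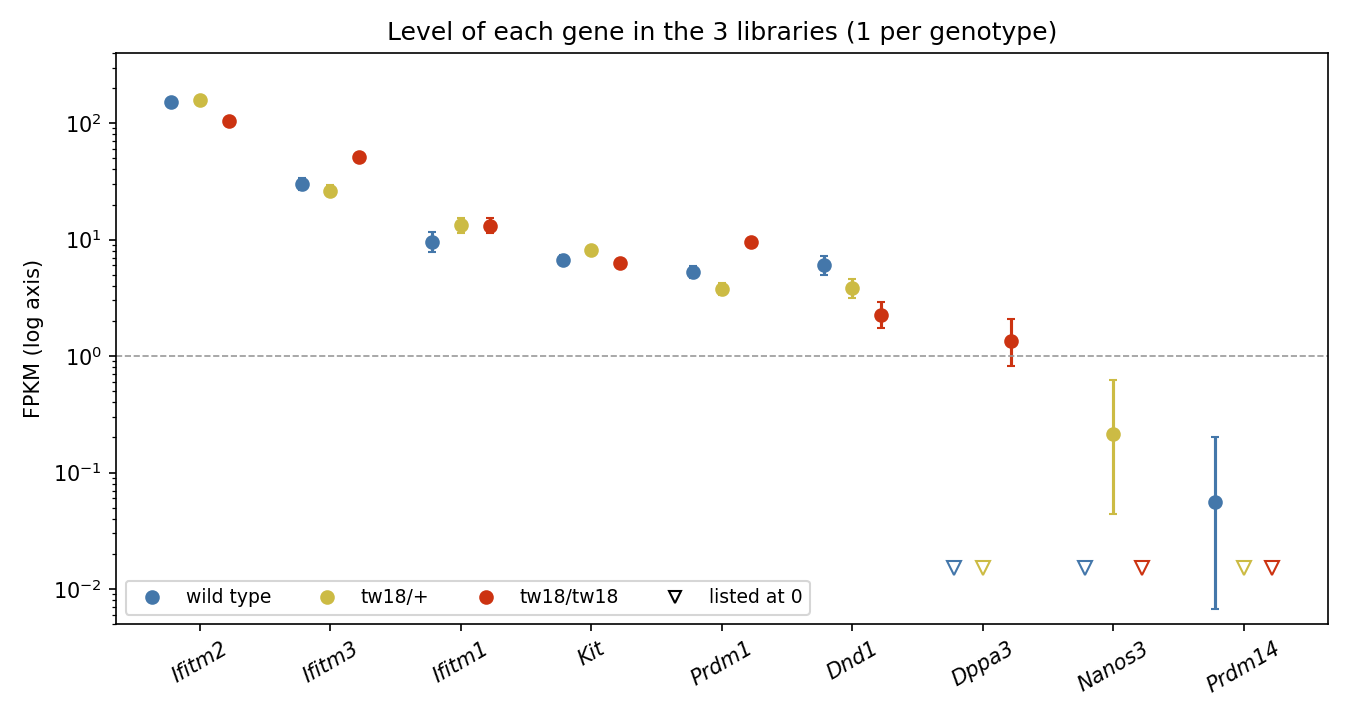
FPKM on a log axis of each of the 9 genes in the wild-type, *tw18*/+ and *tw18*/*tw18* library, with 95% counting intervals as bars and open triangles for genes listed at 0, whose height is arbitrary. The dashed line is an FPKM of 1. *Ifitm2* lies above 100 in every library, and *Nanos3* and *Prdm14* stay below 1 in all 3.

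The 9 genes fell into a detected and a nearly silent group. *Ifitm2*, *Ifitm3*, *Ifitm1*, *Kit*, *Prdm1* and *Dnd1* reached 1 FPKM in all 3 libraries, *Dppa3* only in *tw18*/*tw18*, and *Nanos3* and *Prdm14* in none. In wild type the order of levels was *Ifitm2*, *Ifitm3*, *Ifitm1*, *Kit*, *Dnd1* and *Prdm1*. The counting intervals of *Kit* and *Dnd1*, and those of *Dnd1* and *Prdm1*, overlapped there, so these neighbours cannot be ordered. In *tw18*/*tw18* the order was *Ifitm2*, *Ifitm3*, *Ifitm1*, *Prdm1*, *Kit*, *Dnd1* and *Dppa3*, the last pair with overlapping intervals. A gene was counted as higher or lower between libraries when the higher FPKM was at least 1 and the log2 ratio at least 1 in size, the fold that the study used. Of the 7 genes that reached this level in *tw18*/*tw18* or wild type, 1 was higher in *tw18*/*tw18* (*Dppa3*), against 15.1% of all 12917 genes so tested, and 1 was lower (*Dnd1*), against 6.94%. With every library set to the same FPKM total, 20.1% of all genes were higher and 4.77% lower in this pair, and relative to the epiblast markers 55.7% and 2.11%. Against *tw18*/+, 2 of 7 were higher in *tw18*/*tw18* (*Dppa3* and *Prdm1*), with 14.9% of 12846 genes higher over the whole table, and 0 were lower, with 5.65% over the table. Between *tw18*/+ and wild type, 0 of 6 were higher and 0 lower, where 4.7% and 5.02% of 12426 genes were. Each pair of these comparisons shares a library. For the tested genes of the 9, log2(FPKM + 1) differed by a median of 0.42 in *tw18*/*tw18* against wild type, with 4 of 7 above 0. Over all genes tested the median was -0.0074, with 6404 of 12917 above 0. For the 9 it was -0.0076 against *tw18*/+ and -0.057 in *tw18*/+ against wild type, where all tested genes had 0.0047 and 0.0026. *Dppa3* was tested only through its *tw18*/*tw18* value in both pairs with that library, so its sign above 0 there was fixed by the filter. Its calls as higher, and its part in these medians, rest on about 20 fragments against a listed 0. In bulk RNA, fewer cells of a type and less RNA per cell cannot be told apart.

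*Prdm1*, the repressor gene that founds the germ cell programme and that is also expressed in visceral endoderm, lies on Chr 10 from 44437177 to 44528501 (GRCm38, minus strand). Its FPKM was 5.27 in wild type, 3.76 in *tw18*/+ and 9.62 in *tw18*/*tw18*, from about 292, 292 and 742 fragments. The homozygous library was thus the highest and *tw18*/+ the lowest, and the counting intervals of the 3 levels did not overlap. The log2 ratio was 0.87 (0.67 to 1.07) in *tw18*/*tw18* against wild type, 1.36 against *tw18*/+ and -0.49 (-0.72 to -0.24) in *tw18*/+ against wild type. The first of these fell short of the threshold and passed it, at 1.08, with every library set to the same FPKM total. Of the 13 visceral endoderm markers, 12 had a higher log2(FPKM + 1) in *tw18*/*tw18* than in wild type, with a median difference of 0.46. Over all tested genes, 6404 of 12917 were above 0, with a median of -0.0074. Of the 13 markers, 1 was past the threshold, against 15.1% of all genes higher in this pair. The part of visceral endoderm in the level of *Prdm1* was not tested.

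*Prdm14*, the partner of *Prdm1* that keeps pluripotency genes on in germ cell precursors, lies on Chr 1 from 13113457 to 13127163. It stood at 0.056 FPKM in wild type, from about 2 fragments, and was listed at 0 in *tw18*/+ and *tw18*/*tw18*. On its transcript of 2564 bp, 3 fragments would have given 0.085 FPKM in wild type and 0.061 in both others, so no difference was detectable at this depth. *Tfap2c*, a further factor of the group and also a trophoblast gene, had FPKM values of 6.36, 5.99 and 18.4 in wild type, *tw18*/+ and *tw18*/*tw18*, a log2 ratio of 1.54 (1.33 to 1.74) in *tw18*/*tw18* against wild type. It is 1 of the 12 listed markers of extra-embryonic ectoderm, of which 0 were at 0 in any library. In that pair 8 of them were higher by the same rule and 1 was lower, against 15.1% and 6.94% of all genes.

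*Dppa3*, a marker of germ cells and of the oocyte and naive pluripotent cells, lies on Chr 6 from 122626410 to 122630272. It was listed at 0 in wild type and *tw18*/+ and had an FPKM of 1.34 (0.82 to 2.07) in *tw18*/*tw18*, from about 20 fragments. Only the homozygous library therefore held a measured value, and no fold is given against a listed 0. On its transcript, 3 fragments would have given 0.285 in wild type and 0.204 in *tw18*/+. An exact 0 in this table can also be a failed estimate, and 16.5% of the 50 bp words of the *Dppa3* transcripts also occur in those of 3 pseudogenes or predicted genes, none of which has a row in the table.

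*Nanos3*, which encodes an RNA-binding protein needed for the survival of migrating germ cells, lies on Chr 8 from 84173731 to 84185217. It was listed at 0 in wild type and *tw18*/*tw18* and had an FPKM of 0.213 in *tw18*/+, from about 3 fragments. This is the level that 3 fragments give, and none of the libraries can be told from the others. The pair of miRNA genes within its annotated span, *Mir181c* and *Mir181d*, were listed at 0 in all 3.

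*Dnd1* encodes an RNA-binding protein that protects germ cell mRNAs and that works with NANOS proteins and the CCR4-NOT deadenylase. Its gene lies on Chr 18 from 36763671 to 36766214. The FPKM was 6.01 in wild type, 3.81 in *tw18*/+ and 2.27 in *tw18*/*tw18*, from about 120, 107 and 63 fragments. The 3 libraries were ordered from wild type to homozygote, and their counting intervals (4.99 to 7.19, 3.12 to 4.61 and 1.75 to 2.91) did not overlap. The log2 ratio was -1.40 (-1.87 to -0.95) in *tw18*/*tw18* against wild type, -0.75 against *tw18*/+ and -0.66 in *tw18*/+ against wild type, and only the first was past the threshold. The 10 epiblast markers had a median log2 ratio of -1.10 in the same comparison, so that *Dnd1* differed by -0.30 on the log2 scale from that median. In *tw18*/+ against wild type that median was -0.044 and the value of *Dnd1* relative to it was -0.61. The 3′ end of *Dnd1* overlaps *Wdr55* on the other strand by 140 bases of genome. *Wdr55* had FPKM values of 32.0, 44.9 and 29.6, a different order.

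*Kit*, the receptor for Kit ligand that germ cells, blood progenitors and mast cells need, lies on Chr 5 from 75574916 to 75656722. It stood at 6.68 FPKM in wild type, 8.17 in *tw18*/+ and 6.27 in *tw18*/*tw18*, from about 482, 823 and 628 fragments. The heterozygous library was the highest, and the intervals of wild type and *tw18*/*tw18* overlapped. The log2 ratio of *tw18*/*tw18* against wild type was -0.091, with a counting interval of -0.27 to 0.081 that includes 0. With the libraries set to the same FPKM total it turned positive, at 0.12. The ligand gene *Kitl*, named after its values were seen, had FPKM values of 4.42, 7.95 and 7.44, a log2 ratio of 0.75 (0.30 to 1.22) in *tw18*/*tw18* against wild type and of 0.84 in *tw18*/+ against wild type, both under the threshold. The 12 listed markers of mast cells and blood progenitors summed to 35.3, 21.2 and 33.3 FPKM. Among them *Cpa3*, *Mcpt4*, *Fcer1a* and *Ms4a2* of mast cells were listed at 0 in all 3 libraries, but the mast cell tryptase gene *Tpsb2* had FPKM values of 11.2, 2.96 and 3.02 (170, 63 and 64 fragments). *Hdc*, the histidine decarboxylase gene of mast and other cells, had 0.122, 0.0218 and 1.69. *Runx1*, a blood progenitor gene that other tissues use too, had 9.52, 4.82 and 18.8, whereas *Myb* had 12.3, 11.8 and 4.95. Of the 6 markers of this list tested in *tw18*/*tw18* against wild type, 2 were higher and 3 lower, against 15.1% and 6.94% of all genes. The part of these cells in the level of *Kit* was not tested.

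**Figure D2:**
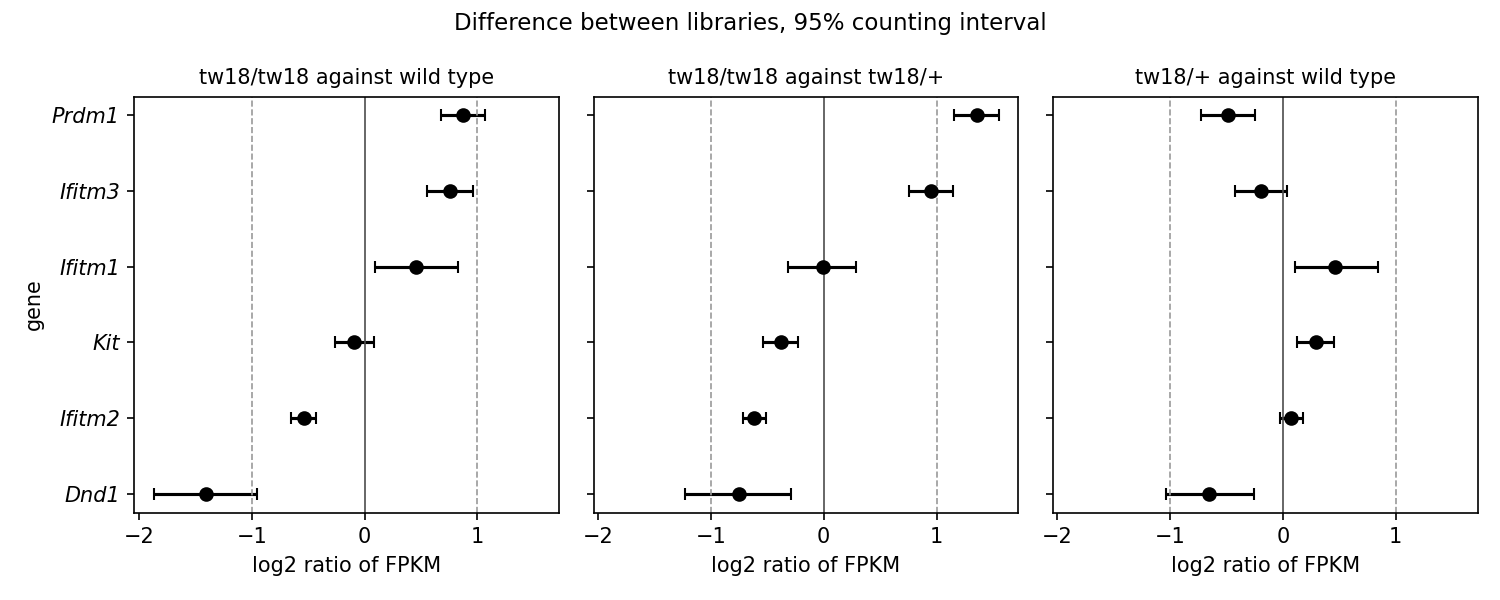
Log2 ratios of FPKM for the 6 genes that reached 1 FPKM in all 3 libraries, in the 3 pairs of libraries, with 95% counting intervals and dashed lines at the threshold of 1 in either direction. *Dnd1* lies past the threshold in *tw18*/*tw18* against wild type and *Prdm1* in *tw18*/*tw18* against *tw18*/+, while no gene does in *tw18*/+ against wild type.

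*Ifitm1*, *Ifitm2* and *Ifitm3* lie close together on Chr 7, *Ifitm2* from 140954837 to 140955987 and *Ifitm3* from 141009586 to 141010770 on the minus strand and *Ifitm1* between them, from 140967221 to 140969825, on the plus strand. Their start regions are shown because the interferon genes of the same libraries are described with them further on. Each runs from 100 bases before to 30 bases after the start of the RefSeq transcript in GRCm38.p6, on the strand of the gene, at chr7:140967976-140968105 (plus) for *Ifitm1*, chr7:140955932-140956061 (minus) for *Ifitm2* and chr7:141010715-141010844 (minus) for *Ifitm3*. Capitals mark each match to GAAANNGAAA, a form of the interferon-stimulated response element, searched on both strands.
Ifitm1: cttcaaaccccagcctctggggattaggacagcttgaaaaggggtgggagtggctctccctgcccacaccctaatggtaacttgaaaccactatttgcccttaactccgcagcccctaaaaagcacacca
Ifitm2: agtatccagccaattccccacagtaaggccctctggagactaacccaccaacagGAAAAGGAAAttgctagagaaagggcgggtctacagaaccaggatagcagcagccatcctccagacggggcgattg
Ifitm3: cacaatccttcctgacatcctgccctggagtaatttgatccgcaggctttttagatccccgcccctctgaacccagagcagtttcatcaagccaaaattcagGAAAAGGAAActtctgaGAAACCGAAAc

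*Ifitm3* held 2 matches, both after its annotated start, *Ifitm2* held 1, before the start, and *Ifitm1* held 0 in the full window of 300 bases. That window of *Ifitm1*, from 140967826 to 140968125, lies inside the annotated span of the gene. The span begins upstream, at 140967221, and the sequence around that start was not searched. RefSeq windows were also found for *Kit*, *Nanos3* and *Prdm1*, with 0 matches, and for *Ifitm5*, *Ifitm6*, *Ifitm7* and *Ifitm10*, again with 0. *Prdm14* and *Dppa3* had no window, and *Dnd1* was not searched. The motif occurred in 3.44% of 32851 windows of that length over all genes. Of the 20 windows of listed interferon response genes, 9 (45%) held it. By gene, these were 9 of the 17 listed that had a window. A match describes the letters only, and none says nothing of the factor.

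*Ifitm2* (*Fragilis3*) was the most abundant of the 9 genes in every library, with 151 FPKM in wild type, 159 in *tw18*/+ and 104 in *tw18*/*tw18*, from about 1361, 2004 and 1301 fragments. It ranked 424, 409 and 557 from the top of the table in the same order. The homozygous library was the lowest, with a log2 ratio of -0.54 (-0.65 to -0.43) against wild type and -0.62 against *tw18*/+, which became 0.56 and 0.47 relative to the median of the epiblast markers, while wild type and *tw18*/+ differed by 0.075, within a counting interval of -0.024 to 0.18. *Ifitm3*, the early precursor mark, had FPKM values of 30.1, 26.3 and 50.7, from about 281, 343 and 659 fragments, and the homozygous library was the highest. Its log2 ratio was 0.75 (0.55 to 0.96) in *tw18*/*tw18* against wild type and 0.95 (0.76 to 1.14) against *tw18*/+, the latter just under the threshold and past it, at 1.20, with every library set to the same FPKM total. In *tw18*/+ against wild type it was -0.20, with an interval of -0.43 to 0.038 that includes 0. *Ifitm1*, which marks mesoderm of the primitive streak stage as well, had FPKM values of 9.59, 13.2 and 13.1, from about 97, 188 and 185 fragments. Here wild type was the lowest, with a log2 ratio of 0.45 (0.095 to 0.83) in *tw18*/*tw18* against it, and *tw18*/+ and *tw18*/*tw18* could not be told apart at this depth, with a log2 ratio of -0.0082 (-0.32 to 0.29) between them.

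The 3 genes thus differed between the libraries in different directions. Their summed FPKM was 190 in wild type, 198 in *tw18*/+ and 167 in *tw18*/*tw18*, of which *Ifitm2* made up 79.2%, 80.1% and 61.9%. *Ifitm3* made up 15.8%, 13.2% and 30.3%, and *Ifitm1* 5.04%, 6.67% and 7.85%. The ratio of *Ifitm3* to *Ifitm2* within a library, which no scaling between libraries can alter, was 0.199 in wild type, 0.165 in *tw18*/+ and 0.489 in *tw18*/*tw18*. Fragments could in part be assigned to the wrong gene. Of the 50 bp words of the *Ifitm2* transcript, 22.8% also occur in transcripts of 6 genes elsewhere, and a further share in the read-through gene *Gm45717* that spans *Ifitm2* and *Ifitm5*. The share was 10.02% for *Ifitm3* and 5.02% for *Ifitm1*. *Ifitm2* and *Ifitm3* shared only 3.3% of the words of *Ifitm2* with each other, and *Ifitm1* and *Ifitm2* shared none.

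**Figure D3:**
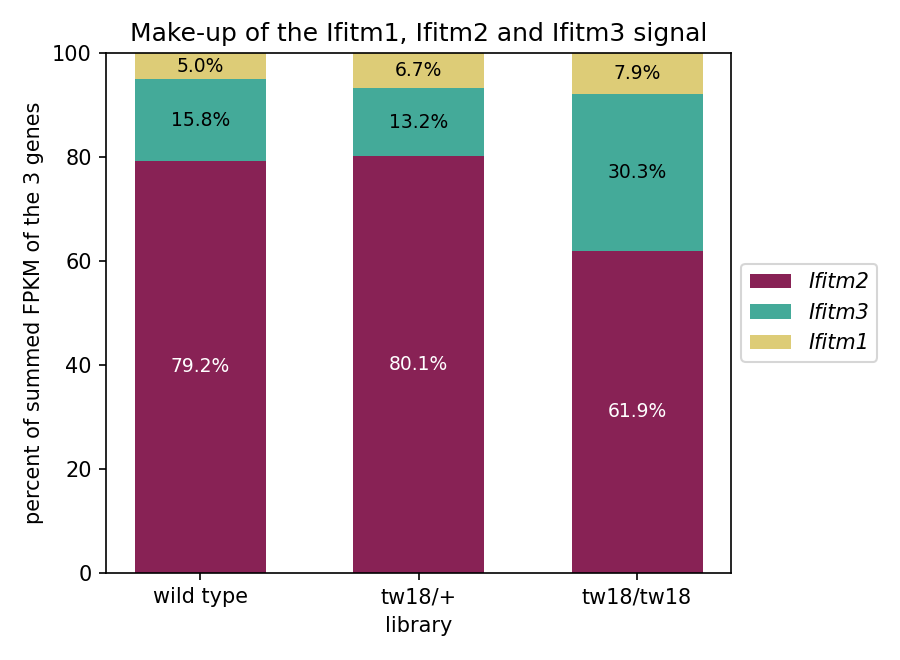
Stacked bars give the percent of the summed FPKM of *Ifitm1*, *Ifitm2* and *Ifitm3* that each gene made up in each of the 3 libraries. *Ifitm3* takes 30.3% in *tw18*/*tw18* against 15.8% in wild type and 13.2% in *tw18*/+.

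Of the other listed *Ifitm* genes, *Ifitm6* was listed at 0 in wild type and *tw18*/+ and had an FPKM of 2.70 in *tw18*/*tw18*, from about 35 fragments. *Ifitm5*, known from bone-forming cells, stood at 1.94 FPKM in wild type, 0.658 in *tw18*/+ and 0.883 in *tw18*/*tw18*, from about 20, 10 and 13 fragments, which made it lower in both by the rule. *Ifitm7* stood at 0.419 FPKM in wild type and 0.543 in *tw18*/*tw18* and was listed at 0 in *tw18*/+, and *Ifitm10* was listed at 0 in all 3. *Bst2*, the gene of the antiviral membrane protein tetherin, showed almost no difference, with FPKM values of 20.1, 21.9 and 21.6.

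Most of the interferon response genes that were tested were at low levels and higher in *tw18*/*tw18*. Of the 21 in the table, 15 reached an FPKM of 1 in *tw18*/*tw18* or wild type, of which 10 were higher in *tw18*/*tw18* and 0 lower, against 15.1% and 6.94% of all genes, with a median difference of log2(FPKM + 1) of 0.76. In the same pair 3 of 7 tested immune cell markers, 6 of 10 endothelial and 10 of 14 decidua and stroma markers were higher, and their part in this was not tested. In *tw18*/+ against wild type, 1 of 13 was higher and 0 lower, against 4.7% and 5.02% of all genes, with a median of 0.091. *Irf7*, a transcription factor of the interferon response, stood at 2.42 FPKM in wild type, 5.29 in *tw18*/+ and 20.0 in *tw18*/*tw18*. *Isg15*, a ubiquitin-like protein, had 1.63, 1.92 and 8.28. *Irf1* went the other way, with 13.1, 16.8 and 8.68, a log2 ratio of -0.59 in *tw18*/*tw18* against wild type. *Ifitm3*, like *Irf7* and *Isg15*, was highest in the homozygote, whereas *Ifitm2* was lowest there.

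Genes of precursor fate and maintenance were split in *tw18*/*tw18*. Of 20 listed, 18 reached an FPKM of 1 in *tw18*/*tw18* or wild type, and 7 were higher and 5 lower, against 15.1% and 6.94% of all genes. In *tw18*/+ against wild type 0 of 17 were higher and 1 lower, against 4.7% and 5.02%. The lower genes included the pluripotency factors *Pou5f1*, with FPKM values of 628, 721 and 274 in wild type, *tw18*/+ and *tw18*/*tw18*, and *Nanog*, with 23.0, 27.1 and 5.35. *Lin28b*, whose protein blocks *let-7* processing, was lower too, with 24.7, 22.0 and 9.67. Its paralog *Lin28a*, at 187, 185 and 135, was not past the threshold. *Klf5*, a Krüppel-like factor of pluripotent cells and trophoblast, was higher, with 23.3, 18.5 and 53.2. *Cxcr4*, the receptor that guides migrating germ cells, had 13.2, 12.9 and 25.6, a log2 ratio of 0.96 that fell short. Median centring adds 0.049 to this ratio and equal FPKM sums 0.21, and with either it passes the threshold.

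Later germline genes were mostly at low levels. Of 20 listed, 10 were tested in *tw18*/*tw18* against wild type, of which 0 were higher and 0 lower, against 15.1% and 6.94% of all genes. Of the 20, 8 were listed at 0 in wild type, 4 in *tw18*/+ and 5 in *tw18*/*tw18*. Against *tw18*/+, 1 of 10 was higher, where 14.9% of all genes were. It was *Rec8*, a meiotic cohesin gene, with FPKM values of 2.22, 1.51 and 3.93 in wild type, *tw18*/+ and *tw18*/*tw18*. Its log2 ratio in *tw18*/*tw18* against wild type was 0.83 (0.41 to 1.26). *Rhox5*, an X-linked homeobox gene that extra-embryonic tissues also express, was the most abundant, with FPKM values of 81.1, 87.9 and 155, a log2 ratio of 0.93 (0.81 to 1.05) in *tw18*/*tw18* against wild type that fell short of the threshold. Equal FPKM sums add 0.21 to every log2 ratio of this pair, and both *Rhox5* and *Rec8* then pass it. The count of 0 higher thus depends on the scaling, under which 20.1% of all genes were higher. *Asz1* and *Brdt*, named after their values were seen, were listed at 0 in wild type and had about 7 and 5 fragments in *tw18*/+ and 32 and 35 in *tw18*/*tw18*, all under 1 FPKM. *Ddx4* (*Vasa*), an RNA helicase of germ cells, had 3.95, 5.86 and 3.65, and *Sycp3*, of the meiotic chromosome axis, had 9.04, 9.48 and 8.27.

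The signals that induce precursors were measured in the same libraries. Of 20 listed BMP and WNT genes, 18 were tested in *tw18*/*tw18* against wild type, with 5 higher and 1 lower, against 15.1% and 6.94% of all genes. The lower gene was *Wnt3*, named after its values were seen, with FPKM values of 5.16, 3.38 and 2.54 in wild type, *tw18*/+ and *tw18*/*tw18*. Its log2 ratio of -1.02 (-1.33 to -0.71) in *tw18*/*tw18* against wild type was only just past the threshold. Median centring adds 0.049 to every log2 ratio of this pair and equal FPKM sums 0.21, and with either *Wnt3* falls short. The study describes *Wnt3* as not significantly changed in the mutant. By in situ hybridization it reports a wild-type pattern for the stage of each embryo, with mutant embryos slightly younger. *Bmp2* was higher, with FPKM values of 14.1, 10.02 and 31.0 in wild type, *tw18*/+ and *tw18*/*tw18*, as was *Bmp4*, with 2.43, 1.09 and 5.78. *Bmp8b*, named after its values were seen, had 0.936, 1.25 and 5.43, from about 38, 71 and 306 fragments. *Id1*, a target of BMP signals, had 31.8, 18.8 and 57.2, a log2 ratio of 0.85, and *Id3* had 75.1, 85.8 and 60.6, a log2 ratio of -0.31. The study counts *Wnt3*, *Ifitm3*, *Id1* and *Id3* among BMP targets without apparent dysregulation in the mutant. In *tw18*/*tw18* against wild type, *Ifitm3*, *Id1* and *Id3* were under the threshold used here. The receptor genes *Bmpr1a*, with 33.9, 32.4 and 25.1, and *Acvr2b*, with 27.6, 25.0 and 18.6, were not past the threshold. *Bmp2*, *Bmp4* and *Id1* had their highest level in the homozygote, whereas *Id3*, *Bmpr1a*, *Acvr2b* and *Wnt3* had their lowest there. *Bmp2* is also 1 of the listed decidua markers and *Bmp4* 1 of those of extra-embryonic ectoderm, and the part of these tissues in their levels was not tested.

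Genes whose proteins work with those of the 9 stayed below the threshold without rescaling of the libraries. Of 15 listed, 14 were tested, and 0 were higher and 0 lower in any of the 3 pairs of libraries. Over all tested genes, 15.1% were higher and 6.94% lower in *tw18*/*tw18* than in wild type, and 14.9% and 5.65% against *tw18*/+. In *tw18*/+ against wild type these shares were only 4.7% and 5.02%. The median difference of log2(FPKM + 1) for the list was -0.24 in *tw18*/*tw18* against wild type. *Prmt5*, the arginine methyltransferase that binds PRDM1, had FPKM values of 114, 103 and 74.4, a log2 ratio of -0.62. *Wdr77*, its cofactor, had 70.2, 83.8 and 55.1, and *Cnot1*, the scaffold of the CCR4-NOT complex, had 90.3, 87.6 and 79.8.

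Markers of other cell types also differed between these libraries. Over all tested genes, 15.1% were higher and 6.94% lower in *tw18*/*tw18* than in wild type. Of 11 endothelial markers, 6 were higher in *tw18*/*tw18* than in wild type and 0 lower, and their FPKM values summed to 61.6 in wild type, 47.9 in *tw18*/+ and 126 in *tw18*/*tw18*. Of 12 immune cell markers, 3 were higher and 0 lower, with sums of 25.3, 16.1 and 46.1, and 2 of them were listed at 0 in wild type and 2 in *tw18*/+. Both sums were highest in the homozygote, as *Ifitm3* and *Prdm1* were, whereas *Ifitm2* and *Dnd1* were lowest there. Of the 14 decidua and stroma markers, 10 were higher and 3 lower, and 0 were listed at 0. The decidual prolactin gene *Prl8a2* had FPKM values of 1504, 155 and 377, and the stromal collagen gene *Col1a1* 35.9, 32.0 and 174. The part of these cell types in the levels of *Ifitm1*, *Ifitm2*, *Ifitm3*, *Prdm1* and *Dppa3* was not tested. Of 11 markers of nascent mesoderm, 9 were tested, with 0 higher and 6 lower.

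**Figure D4:**
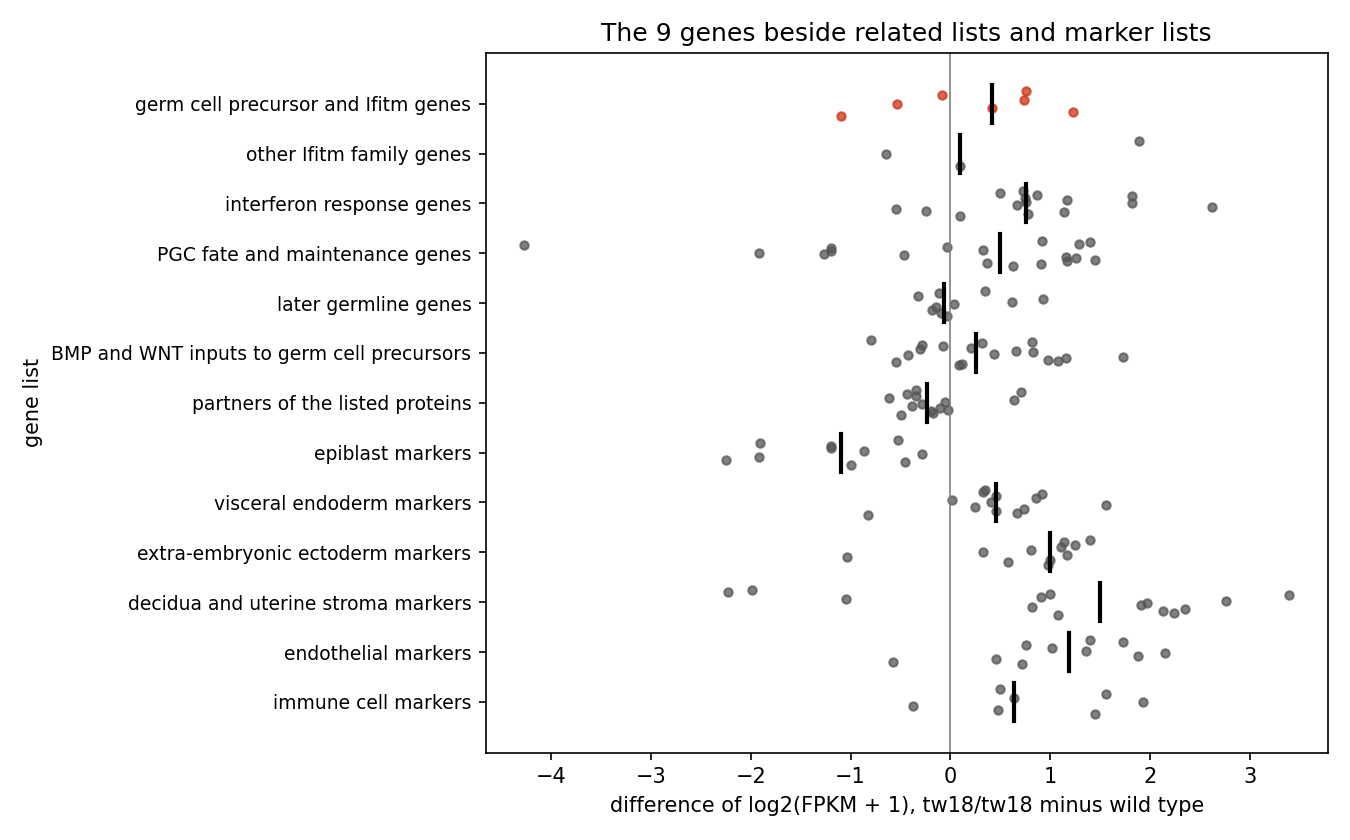
Each point is the difference of log2(FPKM + 1), *tw18*/*tw18* minus wild type, of a gene that reached 1 FPKM in either library, by gene list, with a bar at the median of the list. The 7 tested genes of the 9 (red) spread from -1.10 to 1.23, the epiblast markers all lie below 0, and the median of the interferon response genes is 0.76.

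The genes most like each of the 6 detected genes were found as those at the smallest Euclidean distance over the 3 values of log2(FPKM + 1), among 11069 genes that reached 1 FPKM in all libraries. With 3 points per gene, this describes these libraries only. *Prdm1* lay closest to *Smox*, *Xlr5b* and *Ccdc85b*, at distances of 0.096 to 0.129, and *Ifitm3* to *Ctsa*, *Lama5* and *Bag3*, at 0.135 to 0.167. *Ifitm2* lay closest to *Mrpl12*, *Kars* and *Ppm1g*, at 0.032 to 0.075, and *Ifitm1* to *Sumf2*, *Def8* and *Fam84b*, at 0.069 to 0.086. *Kit* lay closest to *Tpmt*, *Foxp1* and *Slc1a5*, at 0.043 to 0.076, and *Dnd1* to *Ankrd6*, *Hist1h2bl* and *Tspan12*, at 0.090 to 0.170.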

How the data were processed

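RNA from 3 samples, 1 per genotype, was sequenced by the authors as strand-specific libraries made with the TotalScript kit and mapped to mm10 (GRCm38). The authors deposited 1 table of FPKM values from Cuffdiff for 23421 gene symbols. The submitters' processing notes name TopHat2, Bowtie 1.0.0 and Cufflinks 2.2.1. The gene annotation, the library normalization and whether Cuffdiff used the strand are not given in the sources used here. FPKM is a share of a library, so a gene that takes many fragments lowers the others.

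Samples were grouped by the genotype in their labels. The 9 genes and the 14 other gene lists were chosen with earlier results of these data known, so their counts and medians are descriptions and no list is independent evidence. Named genes are the 9 members, up to 6 genes of each list by the highest FPKM, and the 3 nearest genes of each detected member. *Ppp2r1a* was added as a check of the labels, *Wdr55* and the miRNA genes as overlapping genes and 4 mast cell genes as defining markers, while *Kitl*, *Bmp8b*, *Wnt3*, *Asz1* and *Brdt* were named after their values were seen. 1 gene that the rule names is not reported here. The tools were scipy 1.17.1 and pandas 2.3.3, with numpy 2.4.6, under Python 3.11.15, and matplotlib 3.10.9 for plots. Log2 ratios have no pseudocount. Medians over lists use log2(FPKM + 1), which understates the change of low genes.

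Depth came from low FPKM values of genes with a single GENCODE M21 transcript between 1000 and 6000 bp, 188 to 293 values per library, and 78.4% to 81.9% of these were whole multiples of 1 fragment to within 0.1. Fragments used the median length of the protein-coding transcripts. PCR copies are not independent molecules. Positions came from GENCODE M21 and promoter windows, 250 bases before to 50 after a start, from RefSeq (GRCm38.p6). The steps were tested on simulated data. Alternatives were pseudocounts of 0.1 and 1, a minimum FPKM of 0.5, 5 or none, equal FPKM sums, median centring, log2 thresholds of 0.5 and 2, and centring on the epiblast markers, the last added after seeing the data.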

Additional observations from a re-analysis of the deposited data

How the results depend on the processing

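With 1 library per genotype, none of the differences has a replicate check and no replicate could be left out. No paired analysis was possible for the same reason. In *tw18*/*tw18* against wild type, the count of higher genes was 0 with a minimum FPKM of 5, where 8.96% of all tested genes were higher. It was 2 (*Dppa3* and *Prdm1*) with equal FPKM sums, against 20.1% of all, and 3 with a log2 threshold of 0.5, against 26.7%. Centred on the median of the epiblast markers it was 5, a setting that called 55.7% of all tested genes higher. The count of lower genes was 2 without a filter (with *Prdm14*), against 10.8% of all, and 2 with a threshold of 0.5 (with *Ifitm2*), against 19.5%. It was 0 with a threshold of 2, against 2.28%, and 0 when centred on the epiblast markers, against 2.11%. Against *tw18*/+, the higher genes numbered 1 with a minimum of 5 (9.24% of all), 1 with a threshold of 2 (4.75%) and 4 when centred on the epiblast markers (55.4%). The lower genes numbered 1 without a filter (*Nanos3*), against 12.1% of all, and 2 with a threshold of 0.5, against 19.3%. In *tw18*/+ against wild type without a filter, 1 gene was higher (*Nanos3*), against 15.8% of all, and 1 lower (*Prdm14*), against 9.91%. With a threshold of 0.5, 1 was lower (*Dnd1*), against 12.3%. The remaining counts stayed within 1.5 times of those reported. Of the 18 log2 ratios of the 6 detected genes, 12 kept their sign under every scaling and pseudocount tried and 6 did not. *Ifitm2*, *Kit* and *Dnd1* changed sign in at least 1 pair when centred on the epiblast markers, *Kit* also with equal FPKM sums against wild type, and *Ifitm1* against *tw18*/+ under each of the 3 scalings. The ratios past the threshold that do not involve a listed 0, *Dnd1* against wild type and *Prdm1* against *tw18*/+ in *tw18*/*tw18*, kept their sign. *Prdm14*, *Nanos3* and *Dppa3* rest on 20 fragments or fewer per library, which limits what can be said of them.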
